A study of Mus musculus with 4 samples.

Results

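The departure from additivity was measured gene by gene in mouse liver: the level in a double knockout (DKO) was set against the level obtained by adding the changes of both single knockouts. The DKO mouse lacked Cyp27a1 and Cyp3a throughout the body, the Cyp27a1 KO mouse lacked Cyp27a1 alone, the Cyp3a KO mouse lacked Cyp3a alone, and the wild-type (WT) mouse carried neither deletion. The 4 libraries came from the livers of 4 male mice, 1 per genotype, that were housed in groups, fed chow and given no treatment. The labels write the second deletion with the human symbol Cyp3a4. The mouse has a family of Cyp3a genes instead, and that family is given here. The sources used here give no strain, age or time of collection. Of 33639 genes in the count table, 11743 averaged 1 CPM (counts per 1000000 counts) or more over the 4 libraries, and these genes make up the set described. They were chosen by level only. With 1 animal per genotype, genotype and individual animal cannot be told apart, so there are no p-values, and each value compares these 4 libraries. In whole liver, fewer cells of a type and less RNA per cell cannot be told apart either.

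The expected log2 fold of the DKO over WT was the log2 fold of the Cyp27a1 KO over WT plus that of the Cyp3a KO over WT. The departure is the observed log2 fold minus the expected one, so a positive value means that the DKO stood above expectation. A pseudocount of 0.5 CPM was added before logs were taken, which shrinks the folds of low genes. Adding on the log2 scale is the same as multiplying folds in CPM. A gene was called above or below expectation where the departure was at least 2-fold, which is 1 on the log2 scale. Ranges in parentheses after a departure are 95% counting intervals and cover counting error only. The WT library enters both single effects, so a level that is unusual in WT alone gives a departure opposite in sign to both single effects.

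CYP27A1 is the mitochondrial sterol 27-hydroxylase that opens the acidic pathway of bile acid synthesis. CYP3A enzymes hydroxylate bile acids, steroids and drugs, and mice without Cyp27a1 are known for a high hepatic level of Cyp3a, which gives sterol intermediates another way out. Mouse liver is also strongly sex-dimorphic: pulses of growth hormone in males, acting through STAT5, keep up genes such as the major urinary proteins, while genes such as Cyp2b9 and Sult2a1 are mainly expressed in females.

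Cyp27a1 and the summed Cyp3a genes followed the labels, while single Cyp3a genes did not all do so, as given further on. Cyp27a1 (chromosome 1, 74713574 to 74737892) stood at 65.3 CPM in DKO, 57.6 in Cyp27a1 KO, 727 in Cyp3a KO and 746 in WT. Its log2 fold was -3.47 for the DKO over the Cyp3a KO and -3.68 for the Cyp27a1 KO over WT, so its departure was small at 0.22 (0.14 to 0.29). Summed over 9 Cyp3a genes the level was 13.2 CPM in DKO, 25248 in Cyp27a1 KO, 2.696 in Cyp3a KO and 9605 in WT. Library totals ran between 49745860 and 50378101 counts, and 1 count was worth 0.0185 to 0.0214 CPM. All 15 hepatocyte markers were measured, and none of them was at 0 in any library.

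Most genes lay near the additive expectation. The median departure was -0.02 and its median size was 0.266, while the median size of the log2 fold over WT was 0.300 in the DKO, 0.201 in Cyp27a1 KO liver and 0.215 in Cyp3a KO liver. In 75.1% of genes the departure was within 0.5 on the log2 scale in either direction. Departures of at least 2-fold were found in 809 genes (6.89% of all measured genes). Of these, 399 were above expectation (3.4% of measured genes) and 410 were below it (3.49%). The counting interval excluded 0 in 787 of the 809, and 33 had a library with at most 3 counts. At 4-fold, 84 genes were above and 110 were below. Reversal, where the expected and the observed fold were both at least 2-fold and pointed in opposite directions, was found in 21 genes (0.179%). Of the 399 genes above expectation, 67 had a mean under 1 CPM in the 3 libraries other than the DKO and were measured through the DKO alone, which applied to 0 of the 410 genes below. Of the 21 reversing genes, 15 also passed the filter taken over those 3 libraries, and the rest were measured through the DKO alone. In the plot of observed against expected folds, the reversing genes occupy the upper left and lower right.

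**Figure D1:**
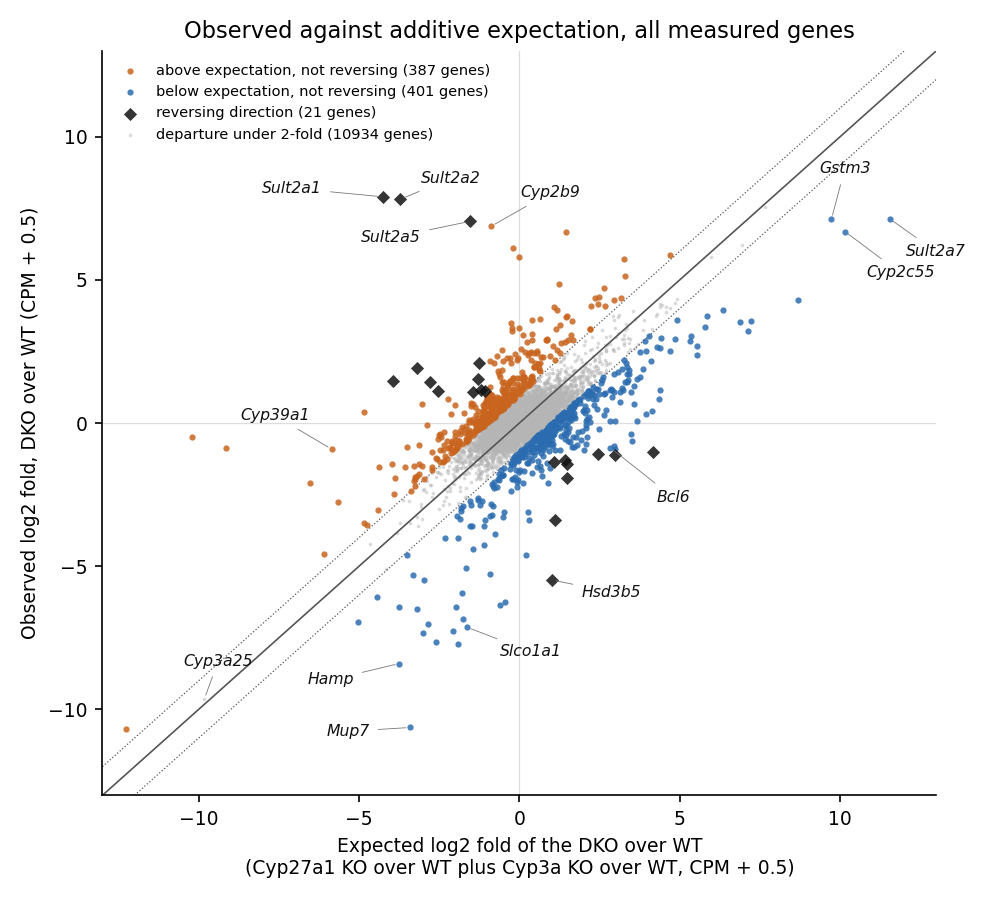
Observed log2 fold of the DKO over WT (vertical) against the sum of both single-knockout log2 folds over WT (horizontal) for 11743 genes, 1 library per genotype. The solid line is additivity and the dotted lines mark a 2-fold departure; Sult2a1, Sult2a2 and Sult2a5 lie far above the line, and Mup7, Hsd3b5 and Slco1a1 lie far below it.

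The 809 genes fell into 6 kinds by the size of the expected and observed folds. Cancelled genes were the most numerous, with 124 above and 138 below expectation: their single effects summed to at least 2-fold, yet the DKO stood within 2-fold of WT. Appearing genes, with a summed effect under 2-fold and an observed fold past it, numbered 106 above and 78 below. Damped genes kept the expected direction past 2-fold at a smaller size and numbered 35 above and 64 below. Genes with a DKO fold in the expected direction and stronger than expected numbered 31 above and 38 below. The reversed genes were 12 above and 9 below. In the other 91 above and 83 below, neither the expected nor the observed fold reached 2-fold by itself. Among these were Asap3, which encodes an Arf GTPase-activating protein and stood at 11.4 CPM in DKO, 2.89 in Cyp27a1 KO, 5.55 in Cyp3a KO and 5.75 in WT, and Sik1, a salt-inducible kinase, at 53.1 CPM in DKO, 35.04 in Cyp27a1 KO, 13.9 in Cyp3a KO and 30.99 in WT. Their departures were 1.86 (1.5 to 2.22) and 1.72 (1.56 to 1.87).

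**Figure D2:**
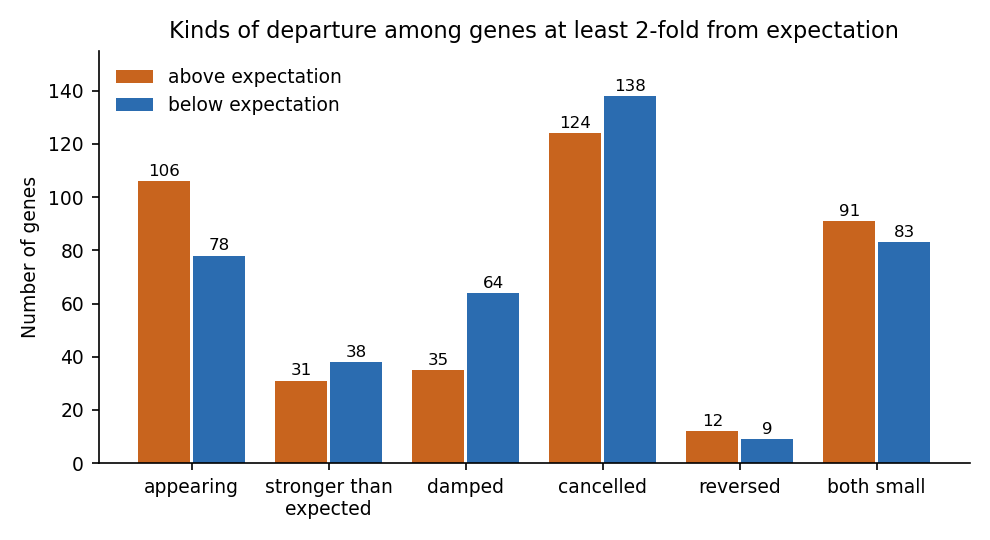
Number of genes (vertical axis, from 0) in each kind of departure, with genes above expectation left and genes below it right in each pair. Cancelled genes, whose DKO level stood within 2-fold of WT although the single effects summed past 2-fold, form the tallest pair with 124 and 138 genes.

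A departure can come from any of the libraries. In 163 of the 809 genes the DKO stood apart by at least 2-fold while the other 3 libraries lay within 2-fold of each other, 99 of them above and 64 below expectation. The Cyp27a1 KO stood apart in 11, the Cyp3a KO in 33 and WT in 45. In the other 557 no single library did. The DKO was the highest of the 4 libraries in 287 of the 399 genes above expectation, and the lowest in 252 of the 410 genes below it.

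Genes that both single knockouts showed on the same side of WT were mostly nearer to WT in the DKO than expected. By itself the Cyp27a1 KO was at least 2-fold over WT in 2.44% of genes and under it in 1.36%, and the Cyp3a KO in 2.56% and 1.86%. Both single knockouts were at least 2-fold over WT in 138 genes, of which 4 were above and 65 below expectation. The median expected log2 fold of these 138 was 3.27 and the median observed one was 2.42. Even so, 92 of the 138 stood further from WT in the DKO than in either single knockout. Both single knockouts were at least 2-fold under WT in 65 genes, of which 36 were above and 6 below expectation, with a median expected log2 fold of -3.14 and an observed one of -1.94. These subsets were chosen on libraries that also enter the departure, so the counts are a description.

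The departing genes were spread over expression levels and chromosomes. Their share was 11.5% of genes with a mean of 1 to 5 CPM, 5.67% at 5 to 20 CPM, 3.82% at 20 to 100 CPM and 9.68% at 100 CPM and more. In order of these classes, 210, 110, 55 and 24 genes were above expectation, and 113, 110, 90 and 97 were below it. By chromosome the share ran from 5.17% on chromosome 18 to 10.1% on chromosome 4, which carries the Mup cluster. Protein-coding genes made up 90.3% of the annotated genes above expectation and 91.5% of those below it, against 97.6% of all measured genes.

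Sulfotransferase genes of the Sult2a family stood furthest above expectation. Their enzymes add sulfate to hydroxysteroids and bile acids, and in mice Sult2a1 is mainly expressed in females. Sult2a1 (chromosome 7, 13796246 to 13837409) had 39439 counts in DKO, 22 in Cyp27a1 KO, 1 in Cyp3a KO and 119 in WT. In CPM these were 728 CPM in DKO, 0.442 in Cyp27a1 KO, 0.01997 in Cyp3a KO and 2.55 in WT, so both single knockouts were under WT and the DKO alone was high. Its expected log2 fold of -4.25 was met by an observed one of 7.90, a departure of 12.15 (9.75 to 14.55). Sult2a2, its neighbour on the chromosome, had 32219 counts in DKO, 18 in Cyp27a1 KO, 6 in Cyp3a KO and 100 in WT and a departure of 11.53 (10.21 to 12.85). Sult2a5 had 6907 counts in DKO, 6 in Cyp27a1 KO, 1 in Cyp3a KO and 22 in WT and a departure of 8.59 (5.96 to 11.22). Sult2a2 and Sult2a5 passed the filter through the DKO alone. With so few counts outside the DKO these sizes depend on the pseudocount. The departure of Sult2a1 was 9.40 with a pseudocount of 2 CPM and 14.86 with one of 0.1 CPM, and that of Sult2a5 was 6.22 and 11.43. The genes are near-identical, which makes the share of each in the counts uncertain. Summed, the 3 stood at 1450.3 CPM in DKO, 0.924 in Cyp27a1 KO, 0.1598 in Cyp3a KO and 5.17 in WT.

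The other measured Sult2a genes lay below expectation. Sult2a7 stood at 157 CPM in DKO, 53.7 in Cyp27a1 KO, 68.5 in Cyp3a KO and 0.622 in WT. It was thus high in all knockouts, and its departure of -4.40 (-4.93 to -3.88) marks a DKO level under the product of both single folds. Sult2a8 stood at 151 CPM in DKO, 427 in Cyp27a1 KO, 803 in Cyp3a KO and 509 in WT, which gave a departure of -2.16 (-2.20 to -2.11) with the DKO lowest. A linear departure, the log2 ratio of the observed level to the level expected from adding changes in CPM, with the same pseudocount and with an expectation under 0 set to 0, was also computed. For Sult2a7 it was 0.37, on the other side of 0.

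The paralogs Cyp2b9 and Cyp2b13 encode female-predominant steroid hydroxylases and were present at more than a few counts in the DKO alone. Cyp2b9 (chromosome 7, 26173411 to 26210661) had 5051 counts in DKO, 5 in Cyp27a1 KO, 4 in Cyp3a KO and 14 in WT. Cyp2b13 (chromosome 7, 26061497 to 26096197) had 2266 counts in DKO, 5 in Cyp27a1 KO, 2 in Cyp3a KO and 5 in WT. The departures were 7.75 (5.81 to 9.70) and 6.31 (3.84 to 8.78), and 5.65 and 4.43 with a pseudocount of 2 CPM. The 250 bases upstream of their starts are shown because the genes moved together (RefSeq, GRCm38.p6, chr7:26173159-26173408, plus strand, and chr7:26061245-26061494, plus strand). They are identical at 248 of 250 positions, and capitals mark the 2 that differ.
Cyp2b9: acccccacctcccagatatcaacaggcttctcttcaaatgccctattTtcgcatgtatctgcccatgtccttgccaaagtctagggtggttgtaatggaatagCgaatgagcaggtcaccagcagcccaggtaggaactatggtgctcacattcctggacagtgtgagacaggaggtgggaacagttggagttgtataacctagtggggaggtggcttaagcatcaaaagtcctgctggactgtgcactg
Cyp2b13: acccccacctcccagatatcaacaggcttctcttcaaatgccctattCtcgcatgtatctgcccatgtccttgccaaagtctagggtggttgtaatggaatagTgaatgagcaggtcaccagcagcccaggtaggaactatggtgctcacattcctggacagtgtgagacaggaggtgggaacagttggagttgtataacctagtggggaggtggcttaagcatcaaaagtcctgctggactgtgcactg
The split of counts between the 2 paralogs is uncertain, and their summed level was 135 CPM in DKO, 0.201 in Cyp27a1 KO, 0.1198 in Cyp3a KO and 0.408 in WT.

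Further genes high above expectation included Sult1e1, the estrogen sulfotransferase, which stood at 27.1 CPM in DKO, 3.07 in Cyp27a1 KO, 0.0999 in Cyp3a KO and 0.4504 in WT, a departure of 3.61 (2.24 to 4.98). It was somewhat high in the Cyp27a1 KO and far higher in the DKO. Scd2, a stearoyl-CoA desaturase, stood at 50.1 CPM in DKO, 4.22 in Cyp27a1 KO, 3.096 in Cyp3a KO and 3.99 in WT, with the DKO alone high and a departure of 3.74 (3.38 to 4.11).

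Of 22 female-biased liver genes listed, 18 were measured, 3 of them through the DKO alone. 10 were above expectation, 5 below and 3 of the 10 reversing, against 3.4%, 3.49% and 0.179% of all genes. The median departure was 1.14. Cyp2b9, Cyp2b13 and Sult2a2 are the 3 that passed the filter only where they were high, and of the 15 others 7 were above, 5 below and 2 reversing, with a median of 0.79. Among the 5 below were Cyp2c69, at 14.9 CPM in DKO, 5.602 in Cyp27a1 KO, 40.1 in Cyp3a KO and 0.794 in WT, and the Cyp3a genes Cyp3a16 and Cyp3a44. All Cyp3a genes on the list belong to the targeted family. The limit given for that family further on applies to them in every count, above, below and reversing. Cyp2c69 was over WT in every knockout and highest in the Cyp3a KO, with a departure of -3.63 (-4.14 to -3.13).

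**Figure D3:**
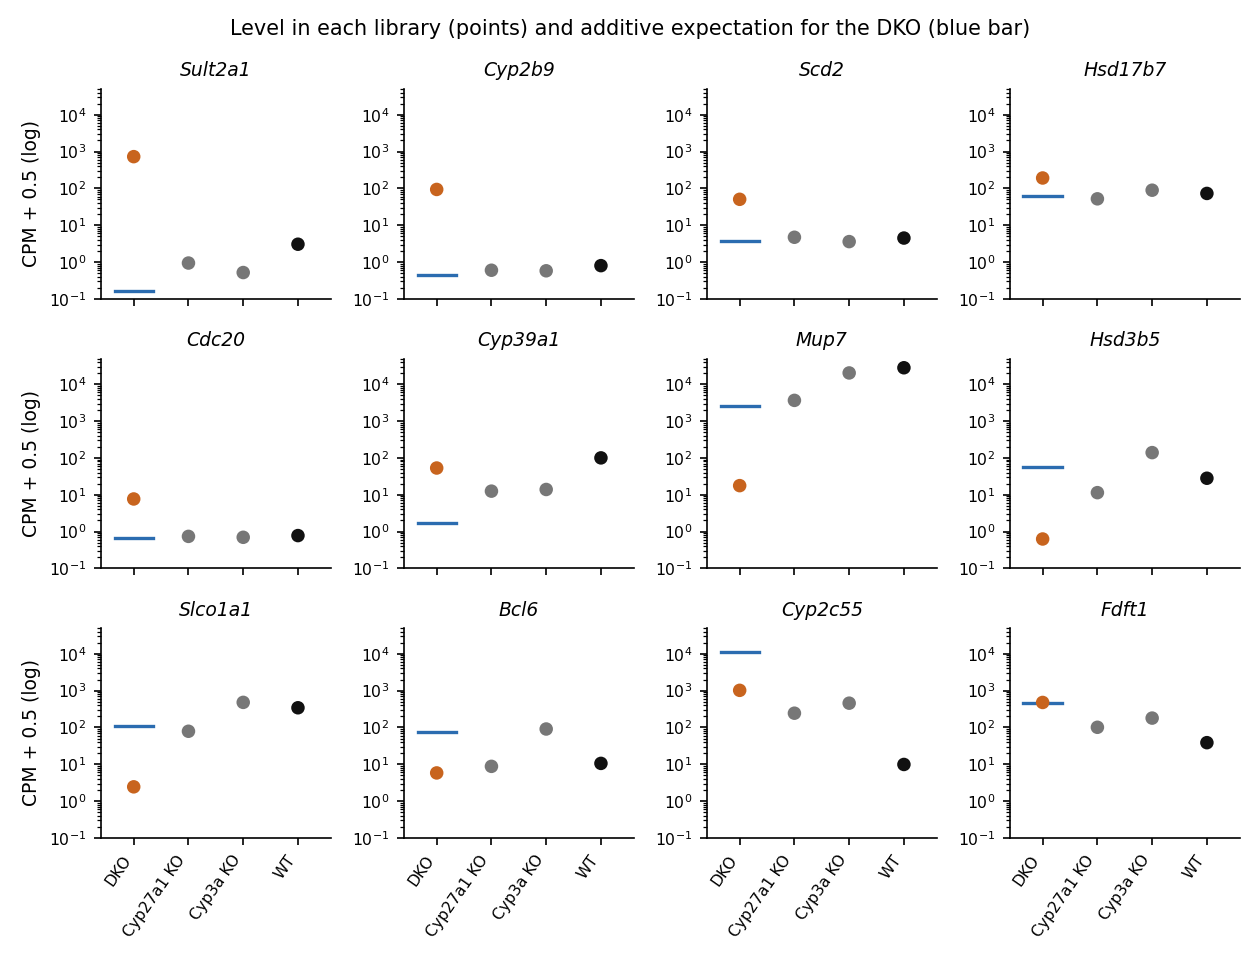
Level of 12 genes in each library (CPM plus 0.5, logarithmic axis), with the DKO leftmost and WT rightmost and 1 library per point. The blue bar over the DKO position is the additive expectation: the DKO lies above it for Sult2a1, Cyp2b9, Scd2, Hsd17b7, Cdc20 and Cyp39a1, below it for Mup7, Hsd3b5, Slco1a1, Bcl6 and Cyp2c55, and on it for Fdft1.

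The major urinary proteins, pheromone-binding proteins that male mouse liver secretes, were among the genes furthest below expectation, with Mup7 the lowest of all. Mup7 (chromosome 4, 60066469 to 60070475) stood at 17.2 CPM in DKO, 3649.6 in Cyp27a1 KO, 20285 in Cyp3a KO and 28047 in WT, a departure of -7.22 (-7.31 to -7.13). Each single knockout was under WT, the Cyp27a1 KO more so, and the DKO was far under all of them. Of 22 Mup genes listed 21 were measured, with 19 below expectation, 0 above and 1 reversing, against 3.49%, 3.4% and 0.179% of all genes, and their median departure was -4.15. All 21 were at least 2-fold under WT in the DKO, as were 4.02% of all genes. Mup15, at 19.3 CPM in DKO, 973 in Cyp27a1 KO, 4674 in Cyp3a KO and 4127 in WT, and Mup17, at 32.3 CPM in DKO, 1041 in Cyp27a1 KO, 4479.7 in Cyp3a KO and 2671 in WT, departed by -5.80 and -5.73. Mup2 departed by -5.77, Mup1 by -5.06 and Mup21 by -4.80. The Mup genes share near-identical sequence, so values of single members are uncertain. Summed over 21 genes the level was 2440.1 CPM in DKO, 38392 in Cyp27a1 KO, 79920.1 in Cyp3a KO and 91477 in WT, a departure of -3.78. Mup5 (-0.49) and Mup20, the pheromone darcin, were within 2-fold. Mup20 stood at 537 CPM in DKO, 2067 in Cyp27a1 KO, 2069 in Cyp3a KO and 7729 in WT, lowest in the DKO, and departed by -0.04. On the linear scale the expectation for Mup7 was below 0 CPM at -4112, so its linear departure, taken against 0, was 5.14. For Mup20 the linear expectation was -3593 CPM and the linear departure 10.07.

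Male-biased liver genes lay mostly below expectation. Of 24 listed, all measured, 20 were below expectation and 0 above, against 3.49% and 3.4% of all genes, with a median departure of -2.19 against -0.02 for all genes. 6 of the 24 are Mup genes and also stand in the list above. Slco1a1, a sinusoidal uptake carrier for organic anions, stood at 1.94 CPM in DKO, 78.2 in Cyp27a1 KO, 478 in Cyp3a KO and 341 in WT. It was low in the Cyp27a1 KO, highest in the Cyp3a KO and nearly gone in the DKO, with a departure of -5.50 (-5.78 to -5.22). Elovl3, a fatty acid elongase, stood at 4.78 CPM in DKO, 428 in Cyp27a1 KO, 361 in Cyp3a KO and 802 in WT and departed by -5.19 (-5.37 to -5.01). Its linear expectation was also below 0 CPM, at -13.03, and its linear departure was 3.40. Serpina1e, one of several alpha-1-antitrypsin genes, stood at 90.4 CPM in DKO, 5437 in Cyp27a1 KO, 6080.0 in Cyp3a KO and 10558 in WT, far lower in the DKO than in any other library, and departed by -5.11 (-5.15 to -5.06). Summed over Serpina1a to Serpina1e the level was 15952 CPM in DKO, 26047 in Cyp27a1 KO, 27484 in Cyp3a KO and 36114 in WT and the departure was -0.31. The split of counts among these near-identical genes is uncertain. C6 and C8b, complement components of the membrane attack complex, were below expectation at -1.72 and -1.05, and C8b was at -0.96 on the deposited TPM, under the threshold.

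Genes of the growth hormone axis departed in a different pattern. Of 17 listed, 15 were measured, with 4 below expectation and 0 above, against 3.49% and 3.4% of all genes, and a median departure of -0.75. Bcl6, a transcriptional repressor that is male-biased in mouse liver (chromosome 16, 23965052 to 23988852), stood at 5.32 CPM in DKO, 8.27 in Cyp27a1 KO, 90.1 in Cyp3a KO and 10.1 in WT. The Cyp3a KO alone was high and the DKO was the lowest library, which gave a departure of -3.69 (-3.95 to -3.44). Socs2, a STAT5 target that feeds back on the growth hormone receptor, stood at 4.49 CPM in DKO, 34.4 in Cyp27a1 KO, 7.97 in Cyp3a KO and 7.85 in WT, high in the Cyp27a1 KO alone, and departed by -2.83 (-3.11 to -2.55). Onecut1, a liver transcription factor, was likewise highest in the Cyp27a1 KO (-1.66), while Igfals, the acid-labile subunit that carries IGF1, was lowest in the DKO (-1.52). Igf1 itself stood at 179 CPM in DKO, 339 in Cyp27a1 KO, 387 in Cyp3a KO and 381 in WT and departed by -0.94, under the 2-fold threshold. The receptor Ghr (-0.76), its kinase Jak2 (0.24) and the transcription factor Stat5b (-0.20) lay within 2-fold of additivity.

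For Bcl6 2 starts are listed, and the window upstream of the first is shown. Its match to TTCNNNGAA, the letters that STAT5 dimers prefer, is in capitals (RefSeq, GRCm38.p6, chr16:23988853-23989102, minus strand).
Bcl6: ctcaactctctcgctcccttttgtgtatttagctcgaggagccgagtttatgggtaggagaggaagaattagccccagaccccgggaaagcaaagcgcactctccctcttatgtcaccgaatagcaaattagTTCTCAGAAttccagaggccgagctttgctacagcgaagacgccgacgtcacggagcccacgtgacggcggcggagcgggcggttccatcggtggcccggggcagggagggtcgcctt
The motif reads the same on both strands, and a match is a description of letters, not of binding. In the 250 bases upstream of the start, 3 of 14 growth hormone axis genes with a listed promoter held a match. Shares were 7.28% of genes above expectation, 7.04% of genes below it and 6.15% of all measured genes with a promoter. Neither Mup genes (0 of 14) nor female-biased genes (0 of 13) held one in this window.

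Reversing genes came from the male-biased and the female-biased list and from outside both. Hsd3b5, a male-specific 3-ketosteroid reductase in mice (chromosome 3, 98618634 to 98630252), had 7 counts in DKO, 543 in Cyp27a1 KO, 6954 in Cyp3a KO and 1285 in WT. Cyp27a1 KO liver was low and Cyp3a KO liver high, an expected log2 fold of 1.01, whereas the DKO gave -5.48 and a departure of -6.49 (-7.54 to -5.45). Mup19 stood at 1306 CPM in DKO, 19855 in Cyp27a1 KO, 19942 in Cyp3a KO and 13599 in WT, higher in both single knockouts than in WT and lowest in the DKO. Nudt7, a peroxisomal coenzyme A diphosphatase, stood at 51.9 CPM in DKO, 261 in Cyp27a1 KO, 428 in Cyp3a KO and 199.6 in WT and had the same order of libraries, with a departure of -3.42 (-3.49 to -3.35). Vnn1, a pantetheinase and PPARalpha target, stood at 7.96 CPM in DKO, 29.4 in Cyp27a1 KO, 49.6 in Cyp3a KO and 22.6 in WT, again lowest in the DKO, and departed by -2.94 (-3.13 to -2.75). Hectd2, a HECT-domain ubiquitin ligase, stood at 1.86 CPM in DKO, 5.78 in Cyp27a1 KO, 21.03 in Cyp3a KO and 4.48 in WT, highest in the Cyp3a KO, and departed by -3.52 (-3.91 to -3.13).

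In the other direction, Slc10a2, the apical sodium-dependent bile acid transporter (chromosome 8, 5083219 to 5105351), stood at 78.4 CPM in DKO, 32.8 in Cyp27a1 KO, 14.98 in Cyp3a KO and 36.96 in WT. It was lowest in the Cyp3a KO and highest in the DKO, with an expected log2 fold of -1.45, an observed one of 1.07 and a departure of 2.52 (2.37 to 2.67). Ppl, encoding periplakin, stood at 51.2 CPM in DKO, 11.6 in Cyp27a1 KO, 4.41 in Cyp3a KO and 11.5 in WT, likewise with a low Cyp3a KO and a high DKO, and departed by 3.38 (3.12 to 3.64). Adgrg1, an adhesion G protein-coupled receptor, stood at 10.01 CPM in DKO, 2.43 in Cyp27a1 KO, 3.34 in Cyp3a KO and 4.38 in WT, with the DKO alone high, and departed by 2.19 (1.78 to 2.60). Sult2a1, Sult2a2 and Sult2a5 complete the reversing genes above expectation that had a mean of at least 5 CPM, and each reached that mean through its DKO level. For Sult2a5 the other libraries were all under the pseudocount of 0.5 CPM, so its reversing call rests on that setting. Of all 21 reversing genes 12 had such a mean, among them Rpl17-ps8, a ribosomal protein pseudogene (-5.17). Those under it include Cdk1 (2.84), the mitotic kinase, and Cyp3a41a. On the deposited TPM, transcripts per 1000000 transcripts, 10 of the 21 were also reversing.

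The same departure can be read as 1 deletion measured on a pair of backgrounds. Loss of Cyp27a1 is the DKO over the Cyp3a KO on the background without Cyp3a, and the Cyp27a1 KO over WT on the background with Cyp3a. These pairs have no library in common. In 28 genes (0.238%) both log2 folds were at least 2-fold and opposite in sign. Loss of Cyp3a gave 43 such genes (0.366%) when the DKO over the Cyp27a1 KO was set against the Cyp3a KO over WT. Taken singly, the DKO was at least 2-fold over the Cyp3a KO in 4.02% of genes and under it in 2.7%, and over the Cyp27a1 KO in 2.84% and under it in 2.59%. The difference between backgrounds was not tested, as each fold rests on 1 library per side.

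Serpina7, the thyroxine-binding globulin gene (chromosome X, 139079257 to 139085236), stood at 3.16 CPM in DKO, 15.8 in Cyp27a1 KO, 21.8 in Cyp3a KO and 6.28 in WT. Loss of Cyp27a1 gave a log2 fold of -2.61 without Cyp3a and 1.26 with it, so each single knockout was over WT and the DKO was lowest. Keg1 stood at 25.9 CPM in DKO, 122 in Cyp27a1 KO, 132 in Cyp3a KO and 45.5 in WT and had the same order. Cyp4a12b, a male-biased fatty acid omega-hydroxylase, stood at 76.7 CPM in DKO, 303 in Cyp27a1 KO, 289.7 in Cyp3a KO and 148 in WT, high in both single knockouts and lowest in the DKO. Its near-identical paralog Cyp4a12a did likewise, and the summed pair stood at 355 CPM in DKO, 1039 in Cyp27a1 KO, 904 in Cyp3a KO and 615 in WT. Dct, dopachrome tautomerase, stood at 2.01 CPM in DKO, 9.72 in Cyp27a1 KO, 6.65 in Cyp3a KO and 1.91 in WT, with the DKO back near WT. Nebl, encoding nebulette, stood at 17.8 CPM in DKO, 7.01 in Cyp27a1 KO, 46.3 in Cyp3a KO and 0.429 in WT and was highest in the Cyp3a KO. Its departure was -4.37 (-5.02 to -3.72), and -2.88 on the deposited TPM.

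Above expectation, Apoa4, a lipoprotein component of the gut and fasting liver, stood at 160.4 CPM in DKO, 114 in Cyp27a1 KO, 62.2 in Cyp3a KO and 286 in WT. It was low in both single knockouts and nearer to WT in the DKO, with log2 folds for loss of Cyp27a1 of 1.36 without Cyp3a and -1.32 with it. Enc1, a kelch-repeat protein, followed the same order at 10.6 CPM in DKO, 6.24 in Cyp27a1 KO, 4.95 in Cyp3a KO and 13.8 in WT. For loss of Cyp3a, Fitm1, which promotes lipid droplet formation, stood at 14.9 CPM in DKO, 71 in Cyp27a1 KO, 20.9 in Cyp3a KO and 8.13 in WT, high in the Cyp27a1 KO. Its log2 fold for loss of Cyp3a was -2.22 without Cyp27a1 and 1.31 with it.

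**Figure D4:**
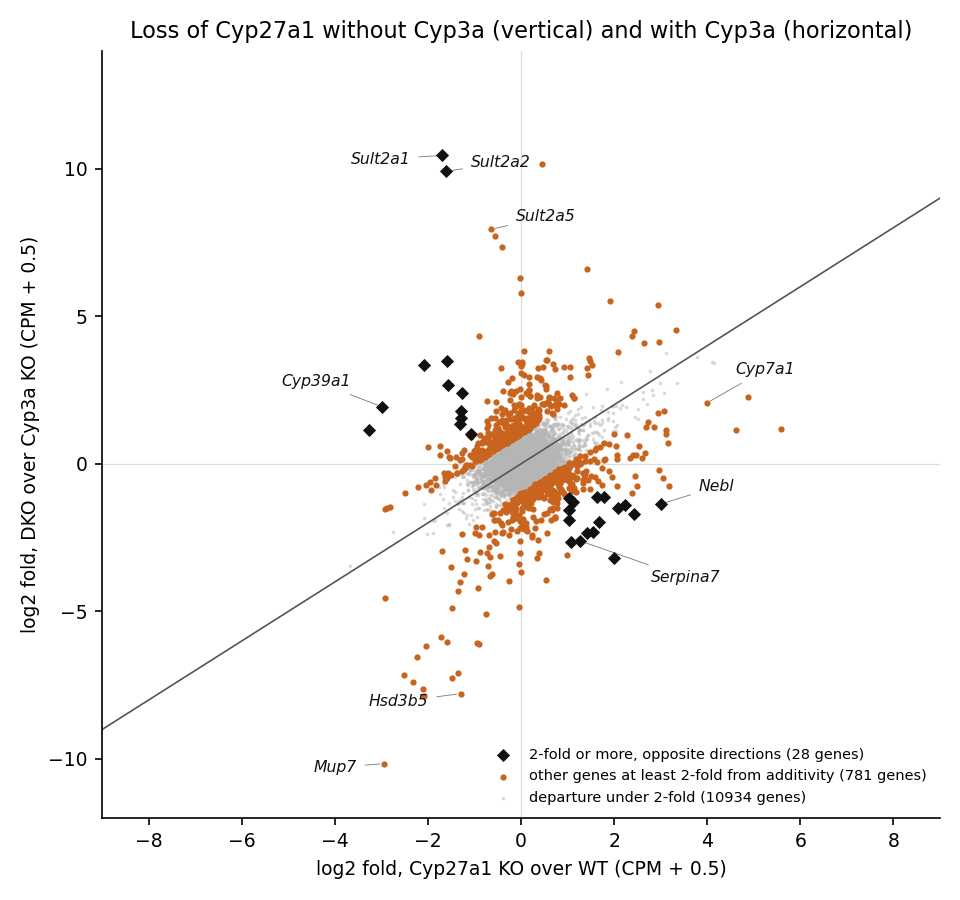
Log2 fold for loss of Cyp27a1 without Cyp3a (DKO over Cyp3a KO, vertical) against that with Cyp3a (Cyp27a1 KO over WT, horizontal) for 11743 genes. Vertical distance from the diagonal is the departure; the 28 diamonds, among them Sult2a1, Cyp39a1, Nebl and Serpina7, were at least 2-fold in opposite directions.

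The series asks how both deletions bear on bile acid synthesis. Among 23 genes of that pathway listed, 21 were measured, with 3 above expectation and 5 below, against 3.4% and 3.49% of all genes, and a median departure of -0.25. Cyp7a1, the first and rate-limiting step of the classic route (chromosome 4, 6265612 to 6275633), stood at 173 CPM in DKO, 362 in Cyp27a1 KO, 41.3 in Cyp3a KO and 22.4 in WT. It was over WT in every knockout and highest in the Cyp27a1 KO, and its departure was -1.93 (-2.04 to -1.82). On the deposited TPM the departure of Cyp7a1 was -2.70. Cyp8b1, the sterol 12-alpha-hydroxylase that directs synthesis to cholic acid, stood at 421 CPM in DKO, 742 in Cyp27a1 KO, 663 in Cyp3a KO and 467 in WT, and Hsd3b7, which follows Cyp7a1 in the pathway, at 216 CPM in DKO, 374 in Cyp27a1 KO, 454 in Cyp3a KO and 287 in WT. Both were higher than WT in each single knockout and slightly under WT in the DKO, with departures of -1.32 (-1.36 to -1.29) and -1.45 (-1.5 to -1.4). Cyp7b1, the oxysterol 7-alpha-hydroxylase of the acidic pathway and a male-biased gene, stood at 15.4 CPM in DKO, 150.2 in Cyp27a1 KO, 209 in Cyp3a KO and 231 in WT, low in the DKO above all, with a departure of -3.10 (-3.21 to -2.99). Scp2, a sterol carrier and thiolase, departed by -1.09, or -0.58 on the deposited TPM, which is under the threshold.

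The 3 above expectation were low in both single knockouts. Cyp39a1, the 24-hydroxycholesterol 7-alpha-hydroxylase (chromosome 17, 43667425 to 43751431), stood at 52.7 CPM in DKO, 12.03 in Cyp27a1 KO, 13.4 in Cyp3a KO and 99.7 in WT. Each single knockout was far under WT, and the DKO lay between them and WT, so the departure was 4.94 (4.76 to 5.11). Acnat2, which conjugates acyl-CoA with amino acids, stood at 21.8 CPM in DKO, 10.98 in Cyp27a1 KO, 14.1 in Cyp3a KO and 37.8 in WT, in the same order, with a departure of 2.35 (2.16 to 2.54). Cyp2c70, which makes muricholic acids in mice, stood at 309.8 CPM in DKO, 298 in Cyp27a1 KO, 241 in Cyp3a KO and 514 in WT and departed by 1.15 (1.10 to 1.19), the single knockouts and the DKO lying on the same side of WT.

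The other 13 members lay within 2-fold of additivity, from -0.74 for Akr1c6 to 0.36 for Star, the mitochondrial cholesterol carrier. Akr1d1, the 5-beta-reductase that gives bile acids their bent ring, stood at 619 CPM in DKO, 309.9 in Cyp27a1 KO, 283 in Cyp3a KO and 130.3 in WT, over WT in each knockout, and was nearly additive at -0.12. Hsd17b4, Fdxr, Fdx1, Baat, Slc27a2, Amacr, Acox2, Slc27a5 and Acnat1 had departures between -0.69 and 0.07. Ch25h and Cyp46a1 were under the filter. Of 12 measured transport genes 1 was above and 2 below expectation, against 3.4% and 3.49% of all genes, the 2 being Slco1a1 and Abcc3. The transporter Slc10a2, which departed by 2.52, is not on this list and is not in these counts. Abcb1a, a multidrug exporter of the canalicular membrane, stood at 23.7 CPM in DKO, 3.37 in Cyp27a1 KO, 7.19 in Cyp3a KO and 2.75 in WT, highest in the DKO, with a departure of 1.4 (1.03 to 1.77). Abcc3, a basolateral bile acid exporter, was of similar level in all 3 knockouts at 827 CPM in DKO, 624 in Cyp27a1 KO, 741 in Cyp3a KO and 211 in WT, which gave a departure of -1.4. Its linear departure was -0.48, under the threshold. All 7 measured FXR-related genes lay within 2-fold of additivity, where 6.89% of all genes departed, a share that amounts to few genes in so short a list. Nr0b2 (SHP) was at 0.09, although its levels differed between the single knockouts at 24.3 CPM in DKO, 7.87 in Cyp27a1 KO, 46.3 in Cyp3a KO and 16.3 in WT.

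Cholesterol synthesis genes mostly lay within 2-fold of additivity on the log2 scale at large folds. Of 25 SREBP2 targets, all measured, 3 were above expectation and 0 below, against 3.4% and 3.49% of all genes. Their median expected log2 fold was 2.48 and their median observed one 2.60. Fdft1, squalene synthase, stood at 476 CPM in DKO, 100.4 in Cyp27a1 KO, 179 in Cyp3a KO and 38.1 in WT and departed by 0.02. Cyp51, lanosterol demethylase, stood at 803 CPM in DKO, 212 in Cyp27a1 KO, 325 in Cyp3a KO and 83.6 in WT and departed by -0.04. In both genes each deletion was over WT by itself and the DKO was at about the product of the folds. Their linear departures were 0.98 and 0.82, so near-additivity holds on the log2 scale. Hsd17b7, a sterol 3-ketoreductase, stood at 191 CPM in DKO, 51.6 in Cyp27a1 KO, 88.9 in Cyp3a KO and 72.5 in WT, with the DKO alone high, and departed by 1.59 (1.5 to 1.68). Hmgcs1, HMG-CoA synthase, stood at 1589 CPM in DKO, 198 in Cyp27a1 KO, 551 in Cyp3a KO and 119 in WT, with a departure of 0.80, under the threshold, and a linear departure of 1.34, past it.

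The upstream windows of Hmgcs1 and Hsd17b7 are shown as 1 SREBP2 target under the threshold and 1 above it (RefSeq, GRCm38.p6, chr13:119690101-119690350, plus strand, and chr1:169969206-169969455, minus strand). Capitals mark CCAAT, the letters of the NF-Y box, on either strand, and in Hmgcs1 also CACCCCAC, a sterol regulatory element.
Hmgcs1: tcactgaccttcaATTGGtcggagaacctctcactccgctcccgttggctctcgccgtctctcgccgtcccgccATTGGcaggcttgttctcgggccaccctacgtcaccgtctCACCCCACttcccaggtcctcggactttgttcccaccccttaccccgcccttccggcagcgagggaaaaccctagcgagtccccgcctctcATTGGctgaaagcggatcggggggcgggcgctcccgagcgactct
Hsd17b7: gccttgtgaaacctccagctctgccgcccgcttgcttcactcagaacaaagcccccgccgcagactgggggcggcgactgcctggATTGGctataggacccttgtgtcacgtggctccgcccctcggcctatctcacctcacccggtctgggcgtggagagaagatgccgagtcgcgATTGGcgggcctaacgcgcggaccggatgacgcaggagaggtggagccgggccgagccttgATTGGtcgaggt
Neither motif overlaps the other in these windows. A CCAAT match was in 15 of 17 cholesterol genes with a listed promoter (88.2%), against 36.8% of all measured genes with one. A CACCCCAC match on either strand was in 2 of the 17, against 2.49% of all.

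Sterol efflux genes showed 3 above and 0 below expectation of 8 LXR targets measured, against 3.4% and 3.49% of all genes, with a median departure of 0.66. The half-transporters Abcg5 and Abcg8, which together secrete sterols into bile, stood at 194 CPM in DKO, 53.2 in Cyp27a1 KO, 84.4 in Cyp3a KO and 63.7 in WT for Abcg5 and 294 CPM in DKO, 88.6 in Cyp27a1 KO, 128 in Cyp3a KO and 102 in WT for Abcg8. In both the DKO alone was well over the other libraries, with departures of 1.45 (1.36 to 1.54) and 1.4 (1.32 to 1.47). Abcg1, another sterol exporter, departed by 1.57. The opposite side held Abca1, which loads sterols onto HDL, at -0.98, and Srebf1, the lipogenic regulator, at -0.81, both under the threshold. Of 16 fatty acid synthesis genes 0 were above and 3 below expectation, against the same shares of all genes: Me1 (-1.47), Mlxipl (-1.27) and Elovl6 (-1.01). Elovl6 was just past the threshold and was under it on the deposited TPM (-0.80), and its linear departure was 0.20.

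Xenobiotic response genes of PXR and CAR departed on both sides. Of 30 listed, 28 were measured, with 5 above and 6 below expectation, against 3.4% and 3.49% of all genes, and a median departure of -0.09. Cyp2b9 and Cyp2b13 passed the filter through the DKO alone, and without them 3 of 26 were above and the median was -0.21. All 6 below were damped genes. Cyp2c55 stood at 1016 CPM in DKO, 243 in Cyp27a1 KO, 455 in Cyp3a KO and 9.37 in WT and Gstm3, a glutathione transferase, at 7182 CPM in DKO, 1512 in Cyp27a1 KO, 1504 in Cyp3a KO and 51.3 in WT. The DKO was the highest library for both, yet the product of the single folds was higher still, so the departures were -3.47 (-3.61 to -3.33) and -2.61 (-2.67 to -2.55). The linear departures were 0.56 for Cyp2c55 and 1.28 for Gstm3, on the other side of 0. Ces2a, a carboxylesterase, and Aldh1a1, a retinaldehyde dehydrogenase, departed by -1.07 and -1.07. Their linear departures were 0.04 and -0.20, and that of Aldh1a1 was -0.97 on the deposited TPM, all under the threshold. Cyp2b10, the classic CAR target, stood at 995 CPM in DKO, 223 in Cyp27a1 KO, 353 in Cyp3a KO and 99.3 in WT and departed by 0.33, under the threshold, while its linear departure of 1.06 was past it. The 5 above were Sult2a1, Cyp2b9, Cyp2b13, Sult1e1 and Abcb1a, of which Sult2a1, Cyp2b9 and Cyp2b13 are also on the female-biased list.

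Of 12 NRF2 targets 1 was above expectation, Hmox1, heme oxygenase, at 1.58. That is 8.33% of the list and near the 6.89% of all genes that departed. Of 25 PPARalpha and fatty acid oxidation genes 3 were above and 5 below, against 3.4% and 3.49% of all genes. Ehhadh, the peroxisomal bifunctional enzyme, stood at 572 CPM in DKO, 408 in Cyp27a1 KO, 309.9 in Cyp3a KO and 711 in WT, low in the single knockouts, and departed by 1.68 (1.65 to 1.72). Cyp4a31 stood at 6.48 CPM in DKO, 7.15 in Cyp27a1 KO, 19.2 in Cyp3a KO and 56.3 in WT and departed by 1.39 (1.16 to 1.63), low in every knockout. Fgf21, a fasting hormone (1.43), was the other above, at 0.49 on the linear scale. The 5 below were Vnn1, Cyp4a12a, Fabp1 (-1.28), Acaa1b (-1.23) and Cyp4a32 (-1.18, and -0.27 on the linear scale).

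Several cell cycle genes stood above expectation. Of 25 listed, 22 were measured, 6 of them through the DKO alone, with 13 above and 0 below expectation, against 3.4% and 3.49% of all genes. Those 6, among them Ccnb1, Cdk1 and Cdc20, passed the filter only where they were high. Of the 16 others 7 were above and 0 below, with a median departure of 0.66. Cdc20, an activator of the anaphase-promoting complex (chromosome 4, 118432901 to 118437352), had 389 counts in DKO, 12 in Cyp27a1 KO, 10 in Cyp3a KO and 13 in WT. Ccnb1, mitotic cyclin B1 (chromosome 13, 100778650 to 100786570), had 286 counts in DKO, 11 in Cyp27a1 KO, 11 in Cyp3a KO and 9 in WT. The departures were 3.53 (2.11 to 4.95) and 2.95 (1.45 to 4.45), and the DKO alone was high in both, through which they were measured. Ccnd1, the G1 cyclin D1, stood at 34.1 CPM in DKO, 5.12 in Cyp27a1 KO, 9.43 in Cyp3a KO and 7.68 in WT, again with the DKO alone high, and departed by 2.34 (2.07 to 2.61). Rrm2, a ribonucleotide reductase subunit, differed: it stood at 12.3 CPM in DKO, 5.44 in Cyp27a1 KO, 0.839 in Cyp3a KO and 7.57 in WT and departed by 3.70 (3.20 to 4.20) with a low Cyp3a KO. The replication genes Pcna and Mcm7 were nearer to additivity at 0.17 and 0.12.

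The upstream windows of Cdc20 and Ccnb1 are shown as those of genes that moved together (RefSeq, GRCm38.p6, chr4:118437344-118437593, minus strand, and chr13:100786487-100786736, minus strand), with CCAAT in capitals.
Cdc20: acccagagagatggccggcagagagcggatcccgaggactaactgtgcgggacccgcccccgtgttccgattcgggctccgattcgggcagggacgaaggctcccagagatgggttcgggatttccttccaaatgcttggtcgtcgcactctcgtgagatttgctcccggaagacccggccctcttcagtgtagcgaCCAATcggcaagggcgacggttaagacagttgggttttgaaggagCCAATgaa
Ccnb1: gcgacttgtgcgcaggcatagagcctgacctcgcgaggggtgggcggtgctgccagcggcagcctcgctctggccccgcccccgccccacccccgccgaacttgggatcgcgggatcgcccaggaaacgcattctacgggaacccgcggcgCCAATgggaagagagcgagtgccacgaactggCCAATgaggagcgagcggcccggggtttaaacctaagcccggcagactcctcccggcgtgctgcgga
Each holds 2 matches. A match on either strand was in 14 of 18 cell cycle genes with a listed promoter (77.8%), against 37.2% of genes above expectation, 37.4% of genes below it and 36.8% of all measured genes with one.

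Markers of other cell types also departed. Of 14 Kupffer cell markers, all measured, 6 were above expectation and 0 below, against 3.4% and 3.49% of all genes, with a median departure of 0.98 and a range from 0.27 to 2.63. Their summed level was 561 CPM in DKO, 397 in Cyp27a1 KO, 259 in Cyp3a KO and 390.2 in WT, so the DKO was highest and the Cyp3a KO lowest, and none was at 0. Marco, a macrophage scavenger receptor, stood at 9.25 CPM in DKO, 3.88 in Cyp27a1 KO, 1.78 in Cyp3a KO and 5.83 in WT and departed by 2.63 (2.21 to 3.05). Vsig4, a complement receptor of Kupffer cells, stood at 34 CPM in DKO, 18.8 in Cyp27a1 KO, 9.25 in Cyp3a KO and 18.9 in WT and departed by 1.83 (1.63 to 2.03), and Adgre1 (F4/80), Timd4 and Cd5l departed by 1.43, 1.70 and 1.37. The part of these cells in the cell cycle values was not tested. Of 11 endothelial markers 1 was above expectation (Lyve1, 1.37), with a summed level of 338 CPM in DKO, 311 in Cyp27a1 KO, 304 in Cyp3a KO and 371 in WT. Of 13 stellate and matrix markers 1 was below, Acta2, which had 31 counts in DKO, 82 in Cyp27a1 KO, 95 in Cyp3a KO and 26 in WT and departed by -2.18, and the summed level was 304 CPM in DKO, 343 in Cyp27a1 KO, 386 in Cyp3a KO and 408 in WT. All 6 cholangiocyte markers measured were within 2-fold. Of 5 measured erythroid genes 4 were above and 1 below expectation, with a summed level of 280.3 CPM in DKO, 449 in Cyp27a1 KO, 286 in Cyp3a KO and 609 in WT. The globin Hba-a1 stood at 58.2 CPM in DKO, 58.98 in Cyp27a1 KO, 32.1 in Cyp3a KO and 99.2 in WT, highest in WT, and departed by 1.59 (1.49 to 1.70), whereas Alas2, the erythroid heme synthesis enzyme, stood at 29.2 CPM in DKO, 146 in Cyp27a1 KO, 103 in Cyp3a KO and 87.7 in WT, lowest in the DKO, and departed by -2.53. Hbb-bs departed by 1.15. All 9 T and NK cell markers were under the filter, while 1 B cell marker, Ighm (-1.06, and -0.95 on the deposited TPM), and 1 neutrophil marker, Csf3r (1.23), passed it, Csf3r through the DKO alone.

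Clock genes departed on both sides, where 3.4% of all genes were above and 3.49% below. Arntl (BMAL1), the positive arm of the clock, stood at 1.98 CPM in DKO, 28.9 in Cyp27a1 KO, 10.6 in Cyp3a KO and 29.6 in WT and departed by -2.13 (-2.45 to -1.81), lower in the Cyp3a KO and lowest in the DKO. Nfil3, a repressor of D-box genes, stood at 6.996 CPM in DKO, 75.9 in Cyp27a1 KO, 39.2 in Cyp3a KO and 64.8 in WT and departed by -2.63 (-2.80 to -2.46). With Npas2 (-1.14), they were the 3 below expectation of 6 genes of the Arntl phase, and 0 were above. Of 13 genes of the opposite Dbp phase 5 were above and 3 below. Per3 and Per2, repressors of the loop, departed by 2.07 (1.66 to 2.48) and 1.46 with the DKO alone high. Nr1d1 (REV-ERBalpha) stood at 29.2 CPM in DKO, 14.8 in Cyp27a1 KO, 143 in Cyp3a KO and 13.6 in WT, highest in the Cyp3a KO, and departed by -2.40 (-2.57 to -2.22). Bhlhe41 departed by -3.71 (-4.94 to -2.49) on 22 counts in DKO, 45 in Cyp27a1 KO, 260 in Cyp3a KO and 8 in WT. The time of collection of each liver, to which these genes respond, is not stated, so genotype and time cannot be told apart.

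Stress genes lay mostly below expectation or within 2-fold of it. Of 16 immediate early genes measured 5 were below and 1 above, against 3.49% and 3.4% of all genes, which was Klf6 (1.19). Egr1, a growth- and stress-induced transcription factor, stood at 80.3 CPM in DKO, 121 in Cyp27a1 KO, 92.6 in Cyp3a KO and 15.1 in WT, with WT alone low, and departed by -3.17 (-3.29 to -3.04). Junb, an AP-1 subunit, stood at 45.1 CPM in DKO, 42.1 in Cyp27a1 KO, 66.1 in Cyp3a KO and 16.5 in WT, also lowest in WT, and departed by -1.87. Against the same shares of all genes, 5 of 14 heat shock chaperones were below and 0 above (median -0.69), with Hspb1 at 7.698 CPM in DKO, 33.4 in Cyp27a1 KO, 15.5 in Cyp3a KO and 17.6 in WT and a departure of -1.87 (-2.08 to -1.66). Of 16 chaperones of the endoplasmic reticulum 6 were below and 0 above (median -0.79). Sdf2l1 stood at 8.84 CPM in DKO, 13.9 in Cyp27a1 KO, 28.1 in Cyp3a KO and 13.7 in WT and departed by -1.63 (-1.84 to -1.41), and Calr, calreticulin, stood at 398 CPM in DKO, 560.3 in Cyp27a1 KO, 691 in Cyp3a KO and 447 in WT and departed by -1.12. Both were highest in the Cyp3a KO and lowest in the DKO. Hsph1 (-1.37) and Pdia4 (-1.17) were under the threshold on the deposited TPM, at -0.86 and -0.93. Of 13 genes of the ATF4 response 3 were below: Asns, asparagine synthetase (-2.41), Gdf15, a stress-induced hormone (-1.96), and Trib3, a pseudokinase (-1.66).

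Secreted proteins of the acute phase list had 4 of 21 members below expectation and 0 above, against 3.49% and 3.4% of all genes. Hamp, which encodes the iron hormone hepcidin (chromosome 7, 30942368 to 30944032), stood at 1.403 CPM in DKO, 112 in Cyp27a1 KO, 272 in Cyp3a KO and 642 in WT. Each knockout was under WT and the DKO was nearly without it, with an expected log2 fold of -3.75, an observed one of -8.40 and a departure of -4.65 (-4.98 to -4.32). Its linear expectation was below 0 CPM at -257, and the linear departure was 1.93. Apcs, serum amyloid P, stood at 17.9 CPM in DKO, 51.3 in Cyp27a1 KO, 54 in Cyp3a KO and 25.03 in WT, high in the single knockouts and lowest in the DKO, and departed by -2.59 (-2.73 to -2.44). Orm2, an orosomucoid, departed by -2.19. Complement and coagulation genes had 4 of 22 below and 0 above, among them C9 at -1.57 and coagulation factor F11 at 22.4 CPM in DKO, 46.1 in Cyp27a1 KO, 82.6 in Cyp3a KO and 44.5 in WT, a departure of -1.91 (-2.03 to -1.78).

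Glucocorticoid-responsive genes had 3 of 13 above expectation, where 3.4% of all genes were, the metallothioneins Mt1 (1.23) and Mt2 (1.06, and 0.63 on the linear scale), lowest in the Cyp3a KO, and Gadd45g (1.07). The list of gluconeogenic and glycolytic genes had 3 of 15 below, where 3.49% of all genes were. It was led by Pfkfb3 (-2.06), which makes the activator of phosphofructokinase, and included Fbp1, fructose bisphosphatase (-1.04, and -0.95 on the deposited TPM). Pericentral genes had 4 of 14 below: Oat, ornithine aminotransferase (-1.63), the Wnt target genes Lgr5 (-1.24) and Axin2 (-1.09), and Rgn, regucalcin (-1.05). Oat and Rgn were under the threshold on the linear scale at -0.72 and -0.90, and Rgn on the deposited TPM at -0.95. Periportal and urea cycle genes had 1 of 15 above and 0 below, Ctsc, cathepsin C (1.07). MHC class I genes had 1 of 16 above and 0 below, H2-T10 (1.83). The departing shares of these lists, 6.67% and 6.25%, were near the 6.89% of all genes. Iron handling genes had Hamp below and Slc40a1, the iron exporter ferroportin (1.13), above, of 15 measured. Of 8 p53 targets 1 was below. That gene, the cell cycle inhibitor Cdkn1a, stood at 7.55 CPM in DKO, 126 in Cyp27a1 KO, 25.8 in Cyp3a KO and 194 in WT and departed by -1.09 (-1.25 to -0.92). It was under the threshold with a pseudocount of 2 CPM (-0.92). Its linear expectation was below 0 CPM at -42.2, and the linear departure, taken against 0, was 4.01.

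Some groups held 0 departing genes, where 6.89% of all genes departed. In a single short list that share amounts to few genes. None of 25 interferon response genes departed, although 13 were at least 2-fold over WT in the DKO (6% of all genes were): the median expected log2 fold was 1.11 and the observed one 1.04. None of 32 ribosomal protein genes, 31 nuclear respiratory chain genes and 13 mitochondrially encoded genes departed. Of the 15 hepatocyte markers only Alb, the albumin gene, did: it stood at 65721 CPM in DKO, 37953 in Cyp27a1 KO, 40344 in Cyp3a KO and 72499 in WT, low in both single knockouts and near WT in the DKO, with a departure of 1.64 (1.63 to 1.64).

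**Figure D5:**
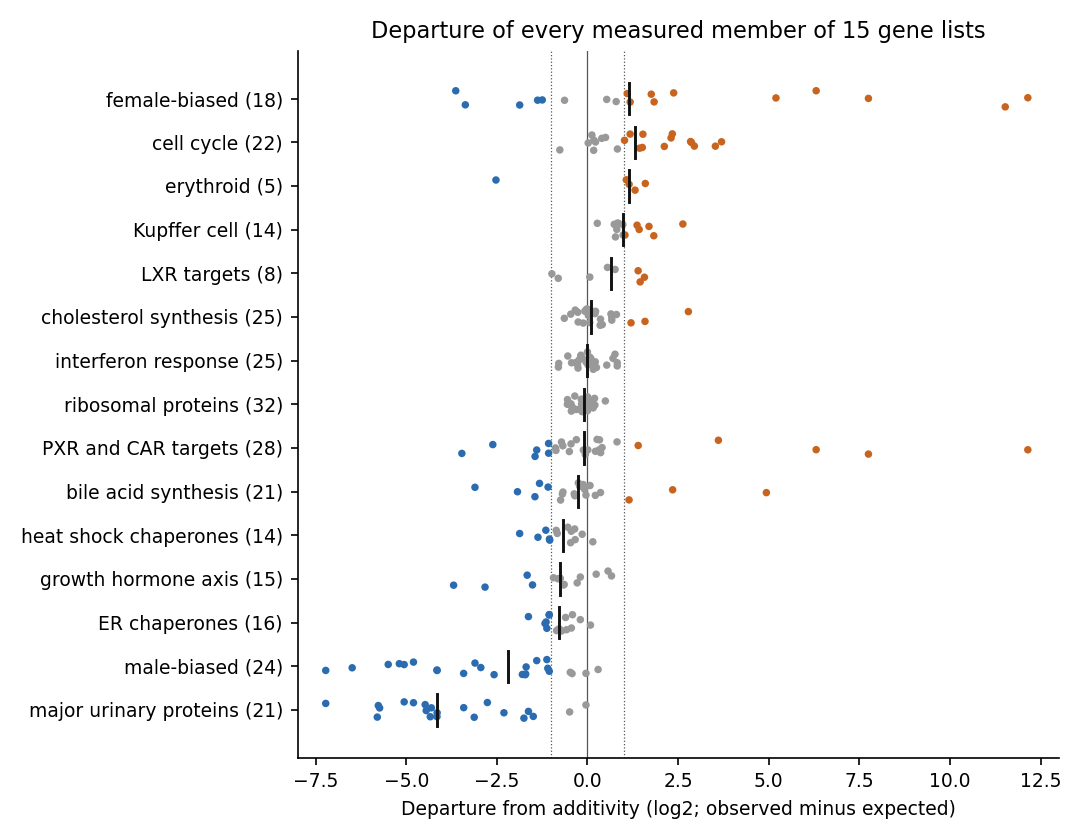
Departure from additivity (log2, horizontal) of every measured member of 15 gene lists, with the number of members in parentheses and 1 point per gene; vertical spread within a row only separates points. Black bars are list medians and dotted lines mark 2-fold; Mup and male-biased genes lie left of 0, cell cycle and Kupffer cell genes mostly right, and interferon and ribosomal genes around 0.

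The labels do not say which mouse Cyp3a genes the Cyp3a deletion removes, and the Cyp3a genes did not all follow 1 pattern. Of 8 measured, 2 were called above and 4 below, against 3.4% and 3.49% of all genes. Of the 9 listed, 6 had 0 counts in the Cyp3a KO and 3 had 0 in the DKO. Where both libraries are at 0, the departure is the log2 fold of the Cyp27a1 KO over WT with its sign turned. Such a value is fixed by the deletion and the pseudocount and says nothing about the DKO. Cyp3a11 (chromosome 5, 145854426 to 145879964) had 258 counts in DKO, 1180555 in Cyp27a1 KO, 8 in Cyp3a KO and 407590 in WT, and its departure of 1.56 (0.57 to 2.54) was 0.21 with a pseudocount of 2 CPM. Its linear departure was -11.47. Cyp3a41a had 292 counts in DKO, 222 in Cyp27a1 KO, 5 in Cyp3a KO and 99 in WT, highest in the DKO, and departed by 2.38 (1.11 to 3.64). Cyp3a59 (-1.91), Cyp3a44 (-1.38), Cyp3a41b (-1.27) and Cyp3a16 (-1.25) were below, Cyp3a13 (-0.93) and Cyp3a25 (0.19) were within 2-fold, and Cyp3a57 was under the filter. Cyp3a25 departed by 1.59 with a pseudocount of 0.1 CPM and by -0.35 with one of 2 CPM, and Cyp3a41b by -1.44 and -0.88. Cyp3a59, Cyp3a44 and Cyp3a16 stayed past 2-fold below at both. For Cyp3a16 this is no check on the DKO. Cyp3a16 and Cyp3a41b had 0 counts in both the Cyp3a KO and the DKO, so their departures are of the fixed kind described above. The Cyp3a genes are near-identical and may share reads, and single values are uncertain.

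At the threshold the values ran on without a gap, and all 8 nearest genes had a departure of 1 in size after rounding to 2 decimals. Just inside it above expectation were Serinc3, with a counting interval from 0.96 to 1.04, and Rnf24, from 0.65 to 1.35. Just outside were Arrdc2, from 0.76 to 1.24, and H2-Q6, from 0.77 to 1.23. Below expectation Foxq1, from -1.38 to -0.62, and Tmem254b, from -1.12 to -0.88, were just inside, and Cldn1, from -1.13 to -0.87, and Rbm47, from -1.10 to -0.89, just outside. Rnf24 stood at 4.14 CPM in DKO, 4.74 in Cyp27a1 KO, 4.33 in Cyp3a KO and 10.4 in WT, with WT alone high.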

How the data were processed

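RNA of 4 mouse livers, 1 per genotype, was sequenced from libraries made with a TruSeq RNA kit, per the labels' protocols. The mm10 build, kallisto 0.43.1, HISAT2 2.0.5 and Trimmomatic 0.33 are listed, without roles, in the submitters' processing notes, and the sources used here do not say which program gave which table. The main table holds the estimated counts per gene that the authors deposited, of which 58.0% are whole numbers within 1e-06. The authors also deposited TPM values. The tables' columns stand in different orders and were matched by name. The labels give no separate cultures, litters or batches.

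Counts were rounded and scaled to CPM with the trimmed mean of M values (TMM) of edgeR 4.0.16 in R 4.3.3. The scaling factors were 1.08 for the DKO, 0.996 for the Cyp27a1 KO, 0.994 for the Cyp3a KO and 0.937 for WT. 1 row named no gene and held 0 counts. Genes with a mean of at least 1 CPM were kept, and log2 values were taken after adding 0.5 CPM. The counting interval is a 95% interval on the log scale with 0.5 added to each count, centred on the departure, and it covers counting error only, since the reads carry no molecular identifiers and may be copies. With 1 library per genotype no test was made, and genes were called at a departure of 2-fold. The computation was tested on simulated data. Coordinates are those of GENCODE M21 (GRCm38), which 32114 genes matched by name. Upstream sequences are from RefSeq on the same build, for 8927 of the 11743 genes. Where a gene had more than 1 listed start, only the first was used, also for the shares with a motif.

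Members, gene lists and thresholds were chosen with earlier results of these data known. Genes were named by size of departure, by class, by list and at the threshold, as up to 10 of the largest in each direction at a mean of at least 5 CPM, up to 6 for reversing and direction-changing genes and up to 4 per list, with all bile acid synthesis and Cyp3a genes. Acaa1b, Aldh1a1, Ccnd1, Cd5l, Cdk1, Ces2a, Cyp2b10, Cyp4a31, Cyp4a32, Cyp51, Fabp1, Fdft1, Ghr, Gstm3, Igf1, Jak2, Klf6, Mcm7, Mup5, Mup20, Nr0b2, Pcna, Rpl17-ps8, Stat5b and Sult2a8 were named after their values had been seen. Some genes that the rule or a list holds are counted but not reported here by name. Alternatives covered scaling (library totals, and size factors from DESeq2 1.42.0), the TPM table, centring, filters, pseudocounts, the threshold and the scale of additivity.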

Additional observations from a re-analysis of the deposited data

Results flagged for a closer look

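The effect of a deletion pointed in opposite directions on the 2 backgrounds, by at least 2-fold each way, in 28 genes for loss of Cyp27a1 and in 43 genes for loss of Cyp3a. Each fold rests on 1 library per side, and the differences were not tested. Among genes with a mean of at least 5 CPM, the departures for loss of Cyp27a1 were -4.37 for Nebl, -3.87 for Serpina7, -3.75 for Keg1, -3.63 for Cyp2c69, -3.59 for Dct and -2.94 for Cyp4a12b. On the other side they were 12.15 for Sult2a1, 11.53 for Sult2a2, 4.94 for Cyp39a1, 2.68 for Apoa4 and 2.10 for Enc1. For loss of Cyp3a, Serpina7, Keg1, Dct, Sult2a1, Sult2a2 and Cyp39a1 also changed direction. They were joined by Hsd3b5 (-6.49), Mup2 (-5.77), Fitm1 (-3.52), Rrm2 (3.70), Ppl (3.38) and Marco (2.63).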

How the results depend on the processing

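Counts over all genes moved with the filter, the pseudocount and the threshold. With a mean of at least 5 CPM, 189 genes were above expectation, 12 reversed and 16 changed direction for loss of Cyp27a1, and the share above expectation among all departing genes was 38.9%, against 49.3% in the values reported. A pseudocount of 2 CPM gave 245 above, 11 reversing, and 14 and 25 changing direction for loss of Cyp27a1 and of Cyp3a. A 4-fold threshold gave 84 above, 110 below, 2 reversing, and 1 and 5 changing direction. Adding on the linear scale gave 673 above and 313 below, a share above of 68.3%, and 168 genes had a linear expectation below 0 CPM. That expectation was set to 0, so these 168 genes could not be called below it. On the linear scale the sign turned for the called genes Sult2a7 (0.37), Mup7 (5.14), Elovl3 (3.40), Cyp2c55 (0.56), Cyp3a11 (-11.47), Hamp (1.93), Elovl6 (0.20), Cdkn1a (4.01), Gstm3 (1.28) and Ces2a (0.040), and for Mup20 (10.07), Cyp3a25 (-8.63), Cyp51 (0.82), Akr1d1 (0.42) and Nr0b2 (-0.63), which were not called. For Mup7, Elovl3, Hamp, Cdkn1a and Mup20 the linear expectation was below 0 CPM, so their positive sign was fixed in advance. A further 9 called genes were under 2-fold on the linear scale: Abcc3 (-0.48), Aldh1a1 (-0.20), Cyp4a32 (-0.27), Fgf21 (0.49), Ighm (-0.59), Mt2 (0.63), Oat (-0.72), Pdia4 (-0.90) and Rgn (-0.90). The median of the Sult2a family was -2.16 with the filter taken over the 3 libraries other than the DKO, where Sult2a2 and Sult2a5 no longer passed, and that of the B cell markers, 1 gene of which was measured, was 0.12 with no filter. On the deposited TPM, 300 of the 399 genes above expectation and 285 of the 410 below were called again, with 10 of the 21 reversing genes, and 119 of the 132 named genes that were called and also passed the TPM filter were past 2-fold, with 0 changes of sign. The 13 under it were Aldh1a1, C8b, Elovl6, Fbp1, Foxq1, Hsph1, Ighm, Pdia4, Rgn, Rnf24, Scp2, Serinc3 and Tmem254b. With a pseudocount of 2 CPM, 122 of 137 named genes remained called. Causes were not tested.

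No paired analysis was possible because the labels give no replicate numbers and each genotype has 1 library. For the same reason no library was left out. Counts of genes that change direction were not run for centring and the linear scale. For the 33 departing genes with a library at or under 3 counts the size of the departure rests on the pseudocount.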
